A study of Mus musculus with 10 samples.

Results

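Mitochondrial ribosomal protein genes were examined in lenses of E13.5 mouse embryos. The members were the probe sets whose platform annotation gave exactly 1 symbol beginning with Mrpl (large subunit) or Mrps (small subunit) and a digit, with 1 probe set kept per gene by the highest mean over the 10 arrays. This gave 77 of 19938 genes, 48 of the large and 29 of the small subunit, and no member was removed for low signal. DicerCN embryos had the genotype Le-Cre+/-;DicerloxP/loxP, so that Cre recombinase, driven by the P0 promoter of Pax6 in the ectoderm that gives rise to corneal and lens epithelium, could recombine both flanked alleles of Dicer. Control embryos were Le-Cre-/-;DicerloxP/loxP: they carried the same flanked alleles without Cre, and the titles call them wild type. The effect of Cre itself and that of the deletion cannot be told apart in this design. Each group had 5 arrays, and each array held RNA from the pooled lens pair of 1 embryo.

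Mitochondria translate the few messages of their own genome on a ribosome of bacterial descent, whose RNAs are mitochondrial but whose proteins are all made in the cytosol from nuclear genes and imported. The large subunit forms the peptide bond and holds the exit tunnel, which faces the inner membrane, and the small subunit decodes the message. Part of the proteins descend from bacterial ribosomal proteins and part were added during the evolution of mitochondria. Everything made on this ribosome in mammals is a subunit of the respiratory chain or of ATP synthase. In the lens, mitochondria are kept in the epithelium and lost as fibre cells mature.

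Promoter windows were read from the RefSeq table of build GRCm38.p6, which matched 68 of the 77 genes with 74 windows of 300 bases each. The letters CCGGAAG, the core bound by ETS factors such as GABP, an activator of nuclear genes for mitochondria, were present on either strand in 33.8% of member windows and in 8.86% of all 32851 windows. The letters for NRF1 (GCGCA, then any base, then GCGC) were present in 17.6% of member windows and 4.6% of all windows. For YY1 (AAGATGGC) the shares were 16.2% of member windows and 2.75% of all windows. For the E-box CACGTG, which Myc binds, they were 9.46% and 7.15%, and several windows of Mrpl2 hold the same E-box. Counted by gene, the ETS core was present in 36.8% of members and 9.93% of all genes. The shares by gene were 19.1% and 5.19% for NRF1 and 17.6% and 3.19% for YY1. For the E-box they were 7.35% and 8.09%, so by gene the members were not above all genes. The searches ran over both strands, and matches of different motifs could overlap. By gene, the ETS core was present for 11 of the 20 matched members that fell in DicerCN lenses and for 14 of the 48 other matched members. The YY1 letters were present for 5 of the 20 and 7 of the 48, the NRF1 letters for 3 of the 20 and 10 of the 48, and the E-box for 1 of the 20 and 4 of the 48. None of these splits was tested, and a match is a description of the letters and not a site. The stretches below run from 150 bases before to 20 after the annotated start, on the strand of the gene, for 5 members that fell and hold the ETS core, and for Mrpl42, which fell furthest and has no match in this stretch; they were picked after the values were seen. Capitals mark the ETS core and NRF1 letters on either strand. The stretches lie at chr2:130563607-130563776 (plus strand) for Mrps26, chr14:57826089-57826258 (plus) for Mrpl57, chr11:115403602-115403771 (plus) for Mrpl58, chr5:31613801-31613970 (plus) for Mrpl33, chr14:54426759-54426928 (plus) for Mrpl52 and chr10:95501930-95502099 (minus) for Mrpl42.
Mrps26: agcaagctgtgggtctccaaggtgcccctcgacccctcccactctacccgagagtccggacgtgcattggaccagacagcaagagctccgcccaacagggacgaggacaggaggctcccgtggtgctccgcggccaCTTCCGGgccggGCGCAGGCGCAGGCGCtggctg
Mrpl57: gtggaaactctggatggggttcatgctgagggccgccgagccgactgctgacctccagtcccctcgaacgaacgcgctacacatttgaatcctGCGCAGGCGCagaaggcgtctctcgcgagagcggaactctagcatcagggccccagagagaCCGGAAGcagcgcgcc
Mrpl58: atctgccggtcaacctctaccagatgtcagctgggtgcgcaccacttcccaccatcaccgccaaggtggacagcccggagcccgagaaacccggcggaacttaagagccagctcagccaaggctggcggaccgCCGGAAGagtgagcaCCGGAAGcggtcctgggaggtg
Mrpl33: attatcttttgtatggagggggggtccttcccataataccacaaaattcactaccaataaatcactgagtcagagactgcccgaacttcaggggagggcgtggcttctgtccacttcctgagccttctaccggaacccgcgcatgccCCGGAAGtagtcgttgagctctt
Mrpl52: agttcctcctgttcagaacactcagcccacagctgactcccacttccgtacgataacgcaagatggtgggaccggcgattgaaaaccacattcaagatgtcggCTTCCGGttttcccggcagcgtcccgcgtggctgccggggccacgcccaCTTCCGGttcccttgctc
Mrpl42: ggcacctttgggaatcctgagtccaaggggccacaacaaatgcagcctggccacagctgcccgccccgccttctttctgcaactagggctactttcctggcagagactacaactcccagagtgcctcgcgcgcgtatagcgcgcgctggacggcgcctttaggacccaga

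All 10 arrays had medians of 6.54 to 6.56 (log2), so they reached deposit already on a common scale, and a change in the total RNA of a lens cannot be seen in them. Dicer1 had log2 signals of 10.37, 10.26, 10.19, 10.20 and 10.45 in DicerCN replicates 1 to 5 and of 10.23, 10.01, 10.32, 10.07 and 10.20 in control replicates 1 to 5, and did not pass the test (limma adjusted p = 0.472). Since its probes need not fall within the flanked exons, Dicer1 gives no test of the genotypes. Of 11 lens markers, 0 passed in either direction. Among markers of other cell types, 2 of 12 macrophage markers (Csf1r and Cx3cr1) were higher in DicerCN lenses, against 2.56% of all genes. In the neural retina (7 genes), pigment epithelium (8) and striated muscle (8) lists 0 passed. The same held for periocular mesenchyme (5), vessel (4) and erythroid (3) markers. Median changes were 0.54 for macrophage, 0.65 for neural retina, 0.97 for pigment epithelium and −0.60 for striated muscle markers. They were 0.34, 0.35 and 0.22 for periocular mesenchyme, vessel and erythroid markers. The mean was below control for 0 of 12 macrophage, 0 of 7 neural retina, 1 of 8 pigment epithelium and 8 of 8 striated muscle markers. It was below control for 0 of 5 periocular mesenchyme, 0 of 4 vessel and 0 of 3 erythroid markers, against 10036 of all 19938 genes. Like content of other tissues in both groups was therefore not shown.

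In DicerCN lenses 22 of the 77 mitoribosomal genes (28.6%) fell and 0 rose, at a limma adjusted p under 0.05 over all genes. Over all genes 3.97% fell and 2.56% rose. The means of 71 members were below control and those of 6 above it. At an unadjusted p under 0.05, 44 members were lower and 0 higher, against 10.2% of all genes lower and 8.36% higher. The median change of the members was −0.26 on the log2 scale, against −0.0014 over all 19938 genes. The changes were modest: the members that passed fell between 1.21-fold and 1.88-fold, with a median size of 0.42 on the log2 scale, and none reached 2-fold. All 5 DicerCN arrays lay below all 5 control arrays in 25 members (32.5%, against 4.42% of all genes), of which 20 passed the test. In 0 members did all DicerCN arrays lie above all control arrays, against 2.96% of all genes. The RNA came from whole lenses, so fewer cells rich in these transcripts and less transcript per cell cannot be told apart. The number of members that fell was 13 without control replicate 1 or control replicate 3 and 14 without control replicate 5.

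**Figure D1:**
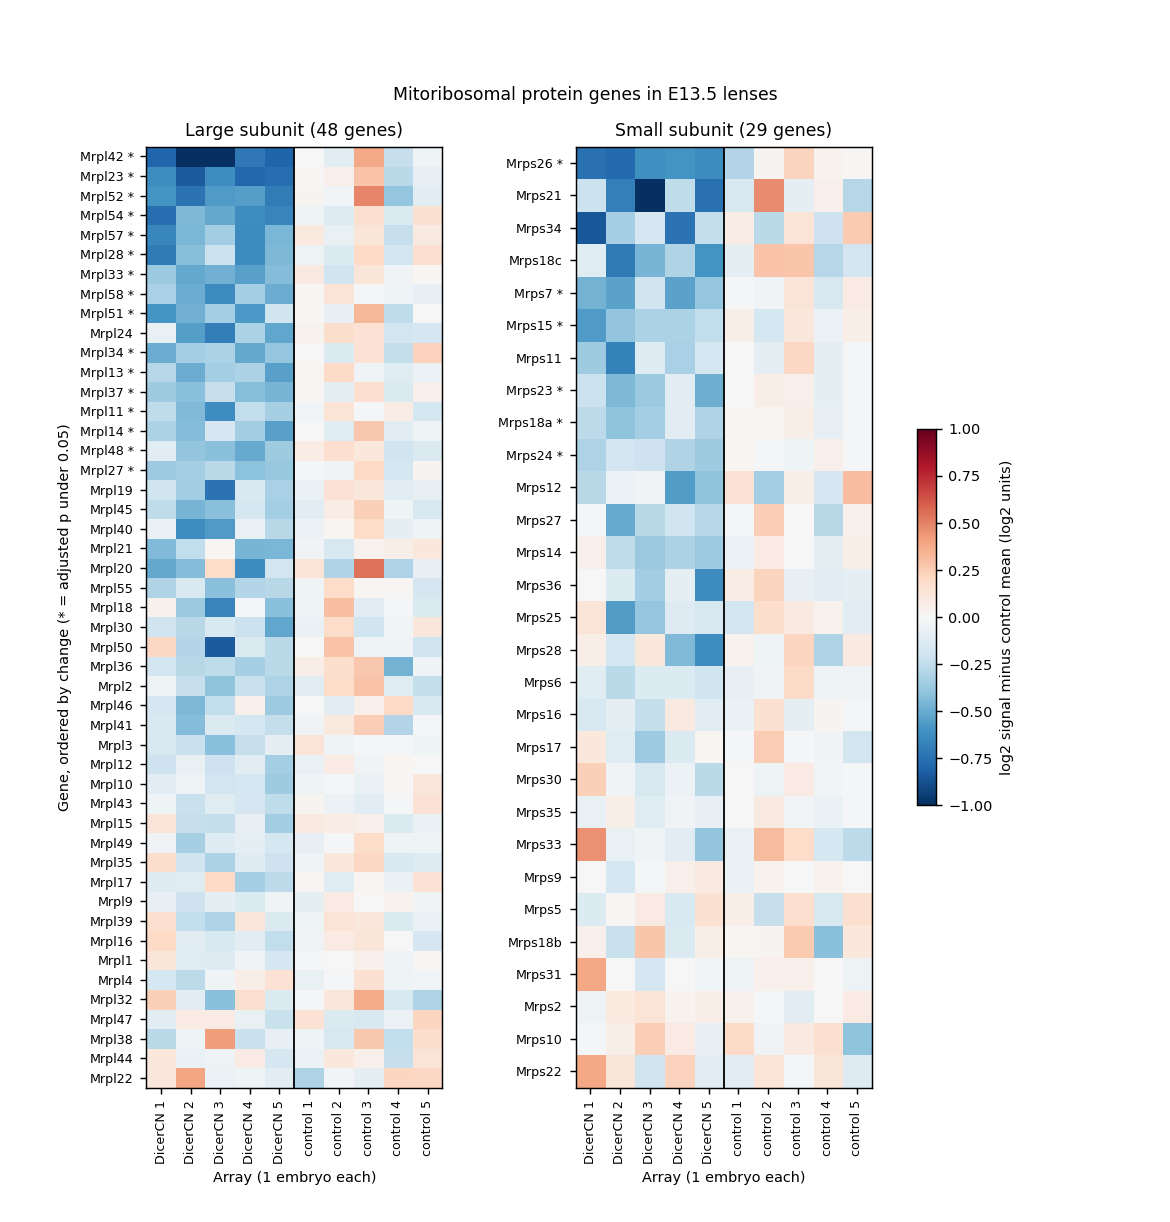
Each cell is the log2 signal of 1 gene on 1 array minus the mean of the 5 control arrays, with the 5 DicerCN arrays left of the line and the 5 control arrays right of it; the colour scale ends at −1 and 1. Genes run from the largest fall to the largest rise in each subunit, an asterisk marks the 16 large subunit and 6 small subunit genes that passed the test, and DicerCN columns are mostly blue in the upper part of both panels.

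In the large subunit 16 of 48 genes (33.3%) fell and 0 rose, and the mean of 47 was below control. The fall was steepest for Mrpl42, a protein with no bacterial counterpart. Its log2 signals were 7.53, 7.10, 7.31, 7.61 and 7.52 in DicerCN replicates 1 to 5 and 8.32, 8.22, 8.70, 8.09 and 8.28 in control replicates 1 to 5. The highest DicerCN array was thus below the lowest control array, and the gene was 1.88-fold lower in DicerCN lenses (fell by 0.91, SE 0.12, limma adjusted p = 0.00113). Mrpl23, whose bacterial counterpart lies at the mouth of the exit tunnel, had signals of 9.13, 8.93, 9.13, 8.97 and 8.99 in DicerCN lenses and of 9.77, 9.81, 10.04, 9.48 and 9.67 in control lenses. The DicerCN arrays kept within a narrow band below all controls, and the fall was 0.72 (SE 0.10, adjusted p = 0.00113). A second probe set of Mrpl23 gave −0.74 (SE 0.10).

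Several of the other clear falls were of proteins without a bacterial counterpart. Mrpl54 had signals of 7.73, 8.05, 7.99, 7.88 and 7.84 in DicerCN lenses, against 8.46, 8.37, 8.66, 8.35 and 8.65 in control lenses, with no overlap (fell by 0.60, SE 0.09, adjusted p = 0.00202). For Mrpl52 the signals were 8.25, 8.11, 8.28, 8.30 and 8.15 in DicerCN lenses and 8.88, 8.83, 9.34, 8.47 and 8.74 in control lenses. Here the control arrays were the more scattered group (SD 0.08 in DicerCN and 0.32 in control lenses, n = 5 each), and the fall was 0.63 (SE 0.13, adjusted p = 0.0124). Mrpl57 averaged 7.69 ± 0.13 in DicerCN and 8.20 ± 0.15 in control lenses (SD, n = 5 each), a fall of 0.51 at an adjusted p of 0.00587 by limma. Mrpl58, a peptidyl-tRNA hydrolase built into the subunit that frees stalled ribosomes, had signals of 8.37, 8.20, 8.06, 8.36 and 8.21 in DicerCN lenses and of 8.71, 8.84, 8.68, 8.65 and 8.62 in control lenses. The groups did not overlap, and it fell by 0.46 (SE 0.08, adjusted p = 0.00494). Mrpl37 fell by 0.38, Mrpl51 by 0.44 and Mrpl48 by 0.36.

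Among the proteins of bacterial descent, Mrpl33 had signals of 7.42, 7.28, 7.32, 7.25 and 7.36 in DicerCN lenses and of 7.89, 7.59, 7.92, 7.76 and 7.81 in control lenses, a fall of 0.47 with no overlap (SE 0.08, adjusted p = 0.00372). Mrpl28 fell by 0.49, Mrpl34 by 0.41 and Mrpl13 by 0.40. Mrpl27, whose bacterial counterpart reaches toward the peptidyl transferase centre, fell by 0.35. Mrpl11, of the stalk base where translation factors dock, fell by 0.38, and Mrpl14, at the interface of the subunits, by 0.36. By class, 8 of 30 genes with a bacterial counterpart and 8 of 18 without one fell, with median changes of −0.27 and −0.33. Whether the classes differ was not tested. The calls of Mrpl11, Mrpl14, Mrpl28, Mrpl34, Mrpl48 and Mrpl51 were lost when single arrays were left out, each with at least 3 arrays. The second probe set of Mrpl51, of lower mean signal, stood at −0.04 (SE 0.08), and the mean of its probe sets did not pass (adjusted p = 0.187).

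Just short of the threshold were Mrpl45, which anchors the ribosome to the inner membrane (−0.33, SE 0.09, adjusted p = 0.0520), Mrpl24 (−0.43, SE 0.12, adjusted p = 0.0536) and Mrpl55 (−0.29, SE 0.08, adjusted p = 0.0539). In all, 9 members had an adjusted p between 0.05 and 0.1. Mrpl12, the stalk protein that recruits translation factors, stood at −0.19 (95% confidence interval −0.35 to −0.03, adjusted p = 0.166) and Mrpl3, of the peptidyl transferase region, at −0.23 (−0.39 to −0.06, adjusted p = 0.112). Mrpl22 was the large subunit gene with a mean above control, at 0.06 (−0.21 to 0.32). Its groups overlapped, with 6.95, 7.24, 6.78, 6.80 and 6.73 in DicerCN lenses and 6.54, 6.82, 6.75, 7.05 and 7.05 in control lenses.

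**Figure D2:**
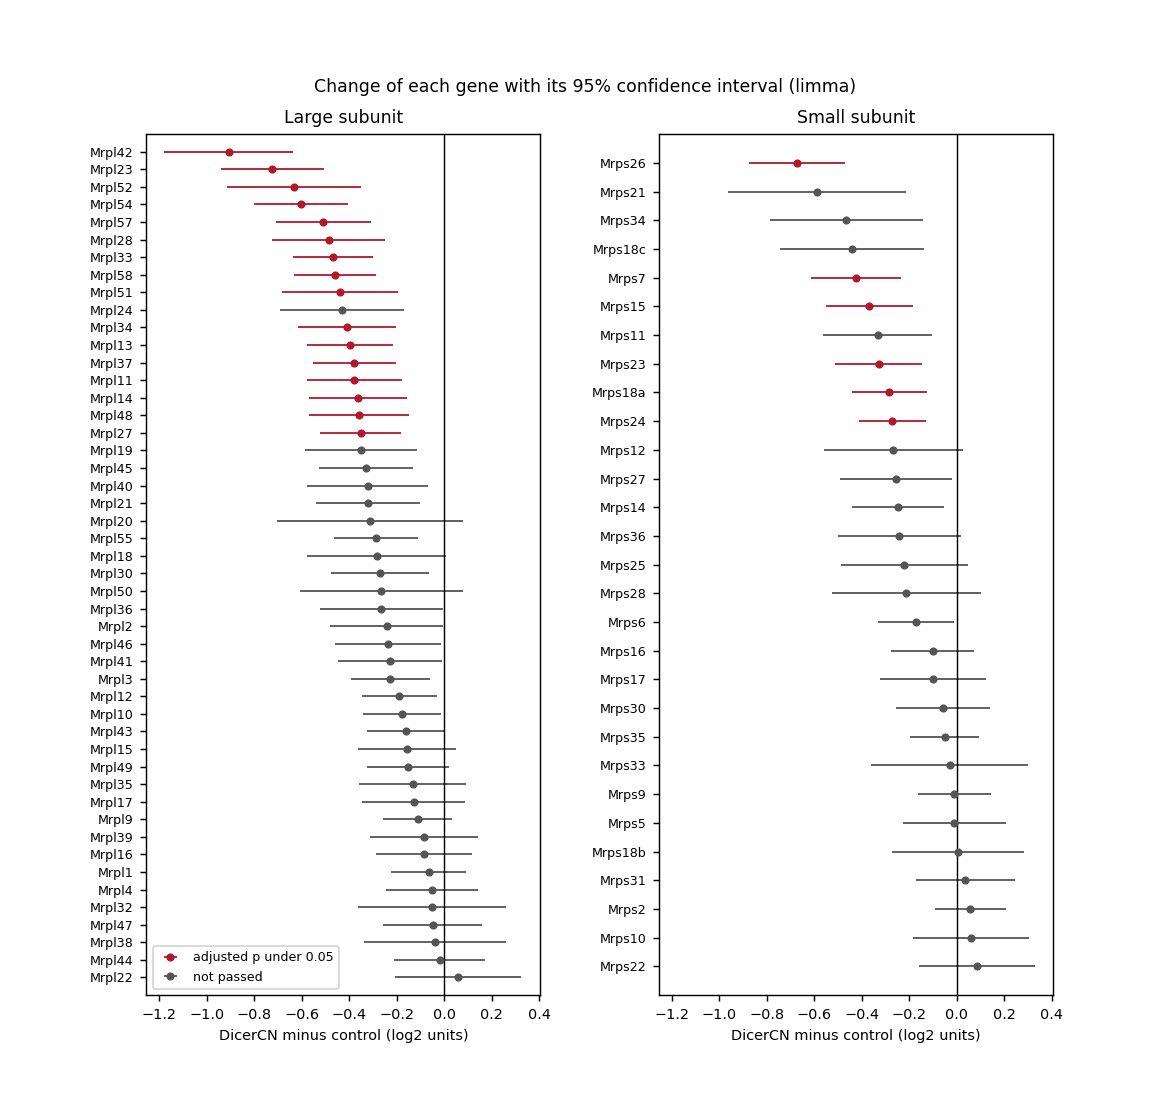
Points give the change of each gene, DicerCN minus control in log2 units, and bars its 95% confidence interval from limma, with genes that passed at an adjusted p under 0.05 in red. Large subunit changes run from −0.91 (Mrpl42) to 0.06 (Mrpl22), and small subunit changes from −0.67 (Mrps26) to 0.08 (Mrps22).

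In the small subunit 6 of 29 genes (20.7%) fell and 0 rose, and the mean of 24 was below control. Mrps26, a protein without a bacterial counterpart, had log2 signals of 8.41, 8.38, 8.54, 8.56 and 8.53 in DicerCN replicates 1 to 5 and of 8.86, 9.18, 9.38, 9.19 and 9.16 in control replicates 1 to 5. The DicerCN arrays spread over an SD of 0.08 below all controls, and the gene was 1.59-fold lower (fell by 0.67, SE 0.09, adjusted p = 0.00115). Mrps7, a protein of the subunit's head near the transfer RNA sites, had signals of 8.86, 8.79, 9.13, 8.79 and 8.94 in DicerCN lenses, against 9.31, 9.29, 9.46, 9.17 and 9.41 in control lenses. Only DicerCN replicate 3 came near the lowest control array, and the fall was 0.42 (SE 0.09, adjusted p = 0.0123). Mrps15 fell by 0.37, Mrps23 by 0.33 and Mrps18a by 0.28. Mrps24, the counterpart of the bacterial protein at the entry of the message, fell by 0.27, with arrays that spread over SDs of 0.07 in DicerCN and 0.04 in control lenses (n = 5 each).

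Mrps21 and Mrps34 had larger mean differences than most small subunit genes that passed, but wider scatter, and did not pass. Mrps21 stood at −0.59 (SE 0.17, adjusted p = 0.0651), with 8.61, 8.14, 7.78, 8.57 and 8.08 in DicerCN lenses and 8.66, 9.30, 8.74, 8.87 and 8.54 in control lenses. DicerCN replicates 1 and 4 lay among the controls, and without DicerCN replicate 1 the gene passed (adjusted p = 0.0362). Mrps34 stood at −0.46 (SE 0.15, adjusted p = 0.0902). Mrps12, which proofreads codons in the decoding centre, was at −0.27 (95% confidence interval −0.56 to 0.02), with overlapping groups. Mrps22, Mrps10, Mrps2, Mrps31 and Mrps18b had means above control, between 0.0052 and 0.08, and none of the 5 passed. For Mrps2 the interval of the change, −0.09 to 0.21, does not reach the median of the large subunit. The count of small subunit genes that fell was 3 without DicerCN replicate 5, control replicate 2 or control replicate 3, and 2 without control replicate 1 or control replicate 5. Mrps26 and Mrps7 kept their calls in all 17 alternative settings. Of the 10 arrays, the call of Mrps18a was lost without any 1 of 8 and that of Mrps23 without any 1 of 7. For Mrps24 this held for 6 arrays and for Mrps15 for 3.

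Mammals keep 3 paralogues of the bacterial ribosomal protein S18, and structures place Mrps18a in the large subunit in spite of its symbol. Mrps18a had signals of 8.59, 8.45, 8.51, 8.75 and 8.55 in DicerCN lenses and of 8.87, 8.87, 8.91, 8.78 and 8.84 in control lenses, a fall of 0.28 (SE 0.07, adjusted p = 0.0365). Mrps18c had 8.95, 8.36, 8.61, 8.77 and 8.47 in DicerCN lenses and 8.99, 9.36, 9.35, 8.79 and 8.88 in control lenses, and at −0.44 (SE 0.14) it did not pass (adjusted p = 0.0874, and 0.0443 without DicerCN replicate 1). Mrps18b had 9.13, 8.86, 9.36, 8.93 and 9.15 in DicerCN lenses and 9.10, 9.11, 9.34, 8.66 and 9.19 in control lenses, with a difference near 0 and an interval of −0.27 to 0.28. The difference between paralogues within an array was compared between the groups over the 3 pairs by exact 2-sided permutation tests. Mrps18c minus Mrps18b moved by −0.45 (exact p = 0.0317, adjusted p = 0.0951) and Mrps18a minus Mrps18b by −0.29 (exact p = 0.0794, adjusted p = 0.119), and neither passed after adjustment. Mrps18a minus Mrps18c moved by 0.16 (exact p = 0.214). The smallest p that this design allows is 0.00794.

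Mrps30, a protein without a bacterial counterpart, is likewise a large subunit protein in mammalian structures. It stood at −0.06 (95% confidence interval −0.25 to 0.14). With Mrps18a and Mrps30 counted in the large subunit, 17 of 50 large and 5 of 27 small subunit genes fell. Mrps36, since reassigned to the oxoglutarate dehydrogenase complex, stood at −0.24 (SE 0.12, adjusted p = 0.307).

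**Figure D3:**
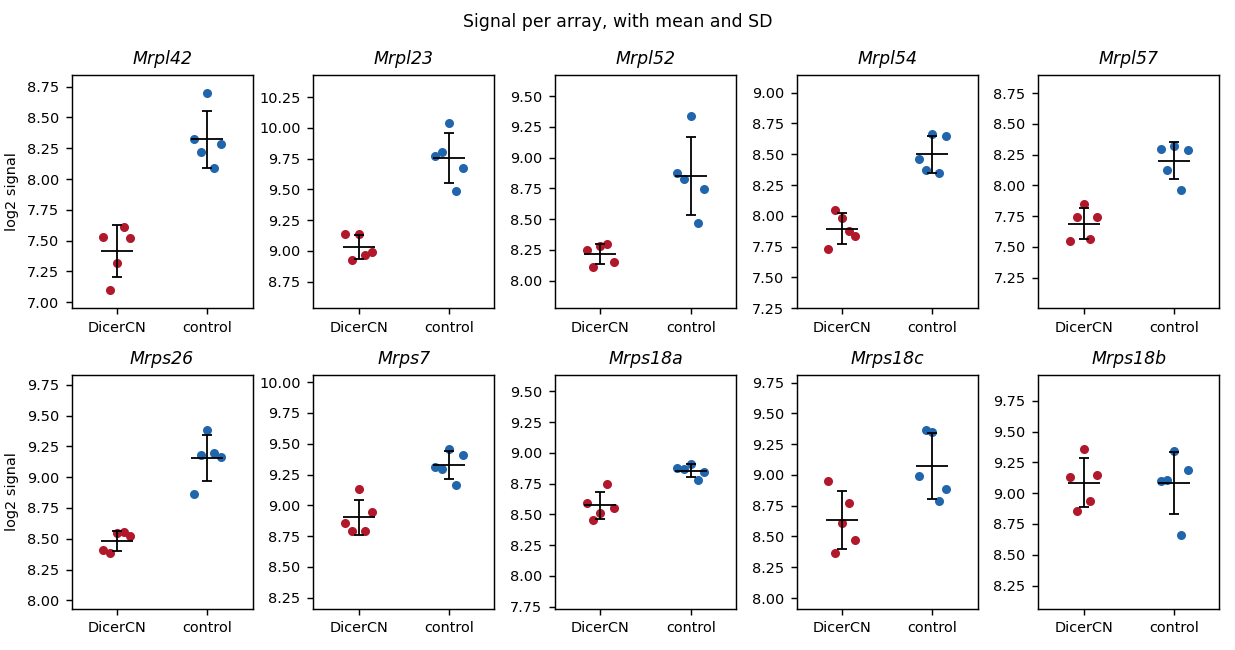
Points are the log2 signals of the 5 DicerCN arrays (red, left) and the 5 control arrays (blue, right), with the mean and SD as bars, and every panel spans the same range of log2 units. The groups do not overlap for Mrpl42, Mrpl23, Mrpl52, Mrpl54, Mrpl57, Mrps26, Mrps7 and Mrps18a, and they overlap for Mrps18c and Mrps18b.

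Per array, the genes of each subunit were summarised as the median of the log2 signal minus the control mean, with no test, since the members are one list. The large subunit medians were −0.18, −0.33, −0.29, −0.22 and −0.33 in DicerCN replicates 1 to 5 and −0.02, 0.01, 0.12, −0.11 and −0.04 in control replicates 1 to 5. Small subunit medians were −0.07, −0.20, −0.20, −0.14 and −0.24 in DicerCN lenses and −0.01, 0.03, 0.06, −0.06 and −0.01 in control lenses. In both subunits every DicerCN array was below every control array, with DicerCN replicate 1 and control replicate 4 closest to each other. The large subunit median was below the small subunit median on each DicerCN array, by −0.11, −0.14, −0.09, −0.08 and −0.08 (large minus small), against −0.01, −0.02, 0.06, −0.04 and −0.03 in control lenses. Over genes the medians of the change were −0.28 for the large and −0.22 for the small subunit. The 25th to 75th percentiles ran from −0.38 to −0.15 in the large and from −0.33 to −0.03 in the small subunit, so the subunits overlapped widely.

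Between embryos of 1 group the members varied about as much in both groups, with a median SD of 0.147 in DicerCN and 0.145 in control lenses. Control replicate 4 gave the lowest control signal for 35 of 77 members, and control replicate 3 the highest for 34. Of the 77 members, 57, 70, 67, 67 and 71 lay below their control mean on DicerCN replicates 1 to 5, against 42, 36, 21, 59 and 48 on control replicates 1 to 5.

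Marker scores, the mean log2 signal of a list minus its control mean, differed between arrays, and their part in the fall of mitoribosomal genes was not tested. For comparison, the median over all members was −0.15, −0.28, −0.24, −0.18 and −0.29 in DicerCN replicates 1 to 5 and −0.09 to 0.10 in control lenses. The macrophage score was 0.80, 0.25, 0.90, 0.69 and 0.15 in DicerCN replicates 1 to 5 and −0.33 to 0.38 in control lenses. The neural retina score was −0.14, 0.20, 0.24, 0.96 and 1.56 in DicerCN replicates 1 to 5 and −0.25 to 0.27 in control lenses. DicerCN replicate 5, with the lowest member median, had the lowest macrophage and the highest neural retina score of its group. DicerCN replicate 1, with the member median nearest 0, had the lowest neural retina score. The other arrays did not keep this order: DicerCN replicate 4 had a neural retina score of 0.96 and a member median of −0.18. For DicerCN replicate 2 these were 0.20 and −0.28. The pigment epithelium score was 0.90, −0.07, 0.06, 1.61 and 1.21 in DicerCN replicates 1 to 5 and −0.18 to 0.15 in control lenses. The score of the lens markers was 0.11, −0.18, 0.19, −0.15 and −0.40 in DicerCN replicates 1 to 5 and −0.11 to 0.11 in control lenses. It was lowest on DicerCN replicates 5 and 2, which also had the lowest member medians. That order leans on 1 gene, Bfsp2, the lens marker with the widest scatter (SD 1.47 in DicerCN and 1.15 in control lenses, n = 5 each). Within the DicerCN group Bfsp2 was itself lowest on replicates 5 and 2. Whether lens content followed the member medians was therefore not shown. Control replicate 4, with a striated muscle score of 2.80 against −0.92 to −0.48 on the other 9 arrays, had the lowest control median (−0.09). Without that array 22 members fell, and without it and DicerCN replicate 5 together 18 did, 3 of them of the small subunit.

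**Figure D4:**
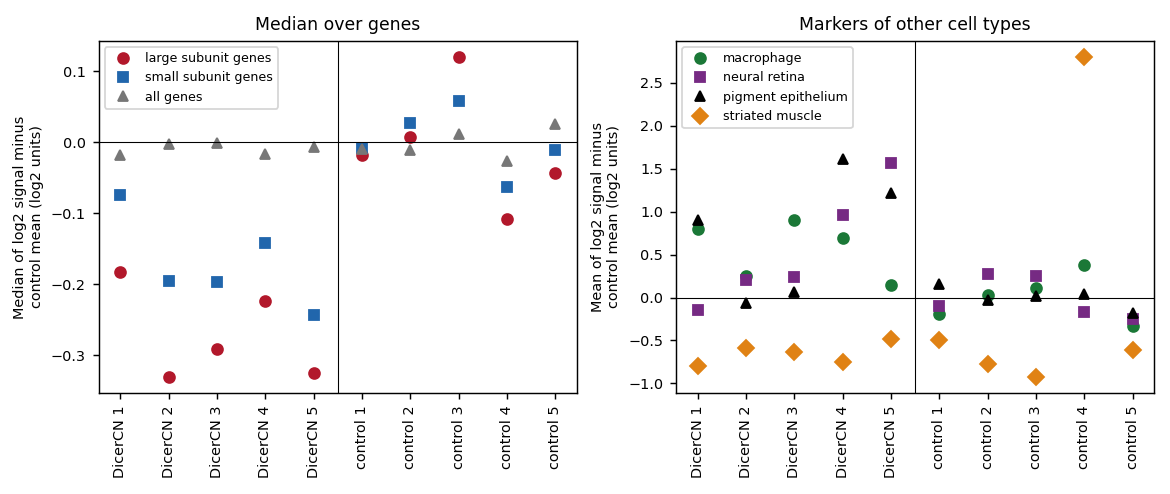
The left panel gives per array the median over large subunit, small subunit and all genes of log2 signal minus control mean, and the right panel the mean of the same quantity over marker lists of 4 other cell types; DicerCN arrays stand left of the line. Large and small subunit medians are lower on all DicerCN arrays, the median of all genes stays between −0.03 and 0.03, and striated muscle markers are high on control replicate 4.

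The other genes needed to express the mitochondrial genome were described from lists that do not overlap the members. Of 4 measured mitoribosomal proteins under other symbols, Chchd1 fell by 0.29 (SE 0.08, adjusted p = 0.0462), and Ptcd3, Dap3 and Gadd45gip1 stood at −0.22, −0.16 and −0.13. Of 22 assembly factors, 1 fell and 0 rose: Mtg1, a GTPase of large subunit assembly, by 0.45 (SE 0.10, adjusted p = 0.0161), and Noa1, a GTPase of small subunit assembly, stood at −0.39 (adjusted p = 0.0837). Of 11 translation factors, Tufm, the elongation factor that brings aminoacyl transfer RNA to the ribosome, fell by 0.29 (SE 0.08, adjusted p = 0.0408), and the initiation factor Mtif2 stood at −0.26 (adjusted p = 0.164). Of 16 mitochondrial tRNA synthetases, Hars2 and Ears2 fell by 0.37 and 0.36. Of 17 genes of mitochondrial transcription and RNA processing, 1 fell: Slirp, which stabilises mitochondrial messages together with Lrpprc, by 0.62 (SE 0.10, adjusted p = 0.00218). In the same list Ssbp1, which binds single strands of mitochondrial DNA, stood at −0.29 (adjusted p = 0.0772). The shares that fell were 4.55% of assembly factors, 9.09% of translation factors, 12.5% of tRNA synthetases and 5.88% of transcription and RNA processing genes. Over all genes 3.97% fell, so the single calls among assembly factors and among transcription and RNA processing genes were near that share. None of these lists held a gene that rose. With 2.56% of all genes rising, 0 rises in lists of 4 to 22 genes were near that share. The calls of Chchd1, Tufm, Hars2 and Ears2 were each lost when single arrays were left out (adjusted p up to 0.116, 0.0984, 0.0693 and 0.111).

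**Figure D5:**
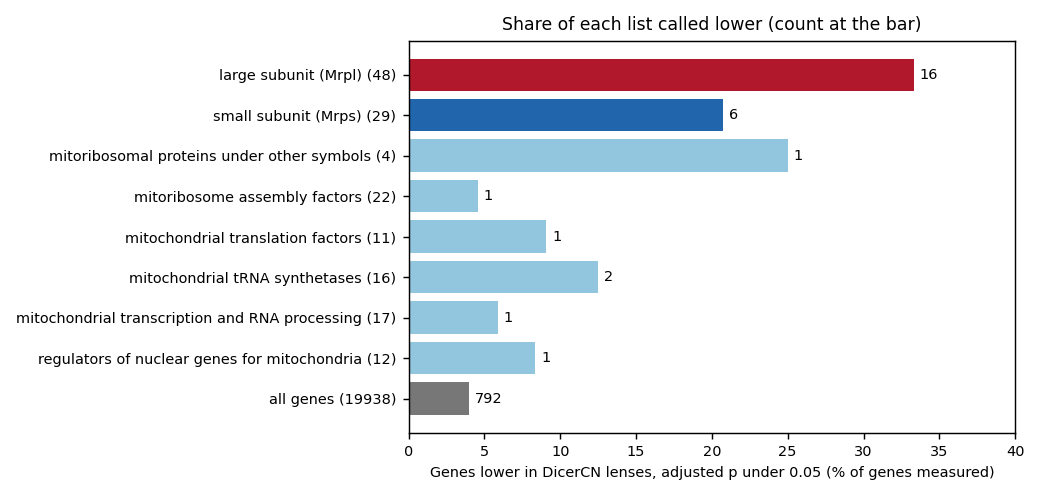
Bars give the share of measured genes of each list that fell in DicerCN lenses at an adjusted p under 0.05, with the number of genes measured in brackets and the number that fell at the bar. The large and small subunit bars stand at 33.3% and 20.7%, mitoribosomal proteins under other symbols at 25%, and all genes at 3.97%. Subunits of respiratory complex I (54.3%) and cytosolic ribosomal protein genes (29.9%) are not drawn.

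Among 12 regulators of nuclear genes for mitochondria, 1 (8.33%) fell and 0 rose, against 3.97% and 2.56% of all genes. Myc, a transcription factor that promotes growth and the making of mitochondria, averaged 7.48 ± 0.29 in DicerCN and 8.50 ± 0.15 in control lenses (SD, n = 5 each), a fall of 1.01 (adjusted p = 0.000806 by limma). The other 11, among them Nrf1, Gabpa and Ppargc1a, did not pass, and Tfe3, next after Myc by p, stood at 0.22 (adjusted p = 0.234). Of the proteins encoded by the mitochondrial genome itself, the array had named probe sets for ND3 and COX2, which stood at −0.38 (SE 0.27) and −0.02 (SE 0.07). Cytosolic ribosomal protein genes fell in 20 of 67 cases (29.9%) and subunits of respiratory complex I in 19 of 35 (54.3%). Their median changes were −0.24 and −0.37, so a fall of this kind was not particular to the mitoribosomal genes. These families were not tested against the mitoribosomal genes.

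The members also shared features of signal and gene size. Their mean log2 signals lay between 6.78 and 10.14, and of the 9162 genes in that range 6.71% fell. Member genes were short, with a median span of 7749 bases from end to end in GRCm38.p6, against 17738 over all genes. Of the 2209 genes in that signal range that span under 10000 bases, 11.6% fell and 2.49% rose, with a median change of −0.06; of the 54 members that span under 10000 bases, 15 fell. The part of signal and gene size in the falls was not tested. Mrps11 and Mrpl46 lie head to head on chromosome 7, with annotated starts 42 bases apart, and stood at −0.33 (adjusted p = 0.0895) and −0.23 (adjusted p = 0.237).

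Of the 77 members, 69 had 1 probe set and 8 had 2. Both probe sets gave like values for Mrpl23, Mrpl27 (−0.35 and −0.38), Mrps33 (−0.03 and −0.02) and Mrps36 (−0.24 and −0.24). They differed more for Mrpl51, Mrps5 (−0.01 and −0.20), Mrpl41 (−0.23 and −0.06) and Mrpl47 (−0.05 and −0.17), the probe set used given before the other. Processed copies of member genes elsewhere in the genome could bind the same probes, also where a gene had 1 probe set. This was not tested, so a call may rest on a probe set that reads such a copy. A further probe set annotated to both Ccdc142 and Mrpl53 was outside the members and stood at −0.29 (SE 0.07), which cannot be assigned to either gene.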

How the data were processed

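Total RNA (100 ng) from the lens pair of each embryo went onto 1 Affymetrix whole-transcript array, as the labels' protocols say. The authors deposited 1 value per probe set and array for 35557 probe sets, taken to be log2 signals from their range (1.91 to 15.2). The scanner software GCOS is named in the submitters' processing notes, and the summary and normalization methods are not given in the sources used here. In the platform annotation 21789 probe sets carried 1 gene symbol, 1621 carried several and 12147 carried none. All 77 members matched RefSeq by gene ID.

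DicerCN and control arrays were compared over all 19938 genes with limma 3.58.1 in R 4.3.3 (lmFit, eBayes, 2-sided, Benjamini-Hochberg over all genes, adjusted p under 0.05), on deposited log2 values. Changes are DicerCN minus control and SE is limma's standard error. The limma script was tested on simulated data. Arrays give no counts, and precision depends on how many there are and on the scatter between them. The median SE of members was 0.0966, with a range of 0.0652 to 0.181. The labels describe the samples as independent embryos, and same-numbered arrays did not deviate together (correlations −0.09 to 0.19), so the numbers were not taken as pairs. The alternatives were the mean of a gene's probe sets, a filter on low signal, quantile normalization, median centring, array weights, the replicate number as a block, each array left out, and control replicate 4 and DicerCN replicate 5 left out together.

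The members and lists were chosen with earlier results of these data known. Genes named are all members that passed, the 6 with the smallest p and the 2 largest rises and falls in each subunit, the S18 paralogues, Mrps30, Mrps36, Dicer1, Myc, and from each list of mitochondrial gene expression those that passed and the 2 with the smallest p. Mrpl3, Mrpl12, Mrpl24, Mrpl41, Mrpl45, Mrpl46, Mrpl47, Mrpl55, Mrps2, Mrps5, Mrps11, Mrps12, Mrps31, Mrps33, Mrps34, Nrf1, Gabpa, Ppargc1a, Dap3 and Gadd45gip1 were named after their values were seen, as were the marker genes Bfsp2, Csf1r and Cx3cr1.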

Additional observations from a re-analysis of the deposited data

Results flagged for a closer look

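Of 96 groups of 5 arrays examined for a single array far from the rest (45 genes and 3 subunit summaries in each group), 1 held such an array, and chance gives about 1 in 20. Hars2, the mitochondrial histidyl-tRNA synthetase, was at 7.59 on DicerCN replicate 2 and at 7.85 to 7.96 on the other DicerCN arrays, and the gap was 0.718 of the group's range. Without that array the call of Hars2 was lost (limma adjusted p = 0.0544), as it was without any 1 of 5 other arrays.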

How the results depend on the processing

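All 17 alternatives kept the median changes of both subunits below 0 and left 0 members that rose. The number of members that fell was 21 with the mean of probe sets, 25 without the genes of lowest signal, 23 after quantile normalization, 23 after median centring and 26 with array weights; leaving out single arrays gave 13 to 23, of which 13 to 20 were among the 22. For the large subunit that range was 10 to 17, for the small subunit 2 to 8, and over all genes 784 to 1295. The large subunit median ran from −0.31 to −0.24 and the small subunit median from −0.26 to −0.17 without single arrays. With the replicate number as a block 17 members fell, 3 of them of the small subunit; 1 of 5 same-numbered pairs correlated above 0.1. Without control replicate 4 and DicerCN replicate 5 together, 3 small subunit genes fell. The cause of these shifts was not tested, and the settings that left arrays out also had fewer arrays. Of the 22 calls, 12 held in all 17 settings and 10 were lost in at least 1. The sign turned for values near 0, none of which passed. Without single arrays Mrpl22 ran from −0.0271 to 0.111, Mrps10 from −0.0421 to 0.106, Mrps18b from −0.0990 to 0.0713 and COX2 from −0.0543 to 0.0031. COX2 was at 0.0873 after quantile normalization. Mrps18b was at −0.0168 with median centring, −0.0366 with array weights and −0.115 without control replicate 4 and DicerCN replicate 5.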
